A study of Bos taurus with 15 samples.

Results

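The BCL2 family genes BAK1, BAX, BCL2L1, BID and MCL1 were followed through the first stages of cattle (Bos taurus) development, from the oocyte to the blastocyst. Probe sets with a single gene symbol in the platform's annotation were taken if it named any of these 5 genes, whatever their signal. The 86 probe sets with several symbols were not searched. The rule found 4 probe sets among 24016 tested, 1 each for BAK1, BAX, BCL2L1 and MCL1. No probe set with a single symbol carried the symbol or the gene identifier of BID, which is not analysed here. BAK1 was the member that rose: its signal was at the bottom of the range in oocytes and 83.5-fold higher in morulae and 28.4-fold higher in blastocysts, on the scale of signal + 16. BAX, BCL2L1 and MCL1 did not pass the test in any comparison between replicated stages as fitted here, and MCL1 lay close to the threshold in morulae.

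The family acts at the outer membrane of the mitochondrion. BAK1 and BAX are its effectors: once activated they form pores in that membrane, which releases cytochrome c and starts the caspase cascade. BCL2L1, the gene of BCL-XL, and MCL1 encode guardians that bind the effectors and hold them inactive, and BH3-only proteins such as BID and BAD tip the balance by activating effectors or by occupying guardians. In mammalian embryos, apoptosis is best known from the blastocyst, where dying cells are often seen in the inner cell mass.

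After 3 rounds of amplification, biotin-labelled RNA was hybridised to Affymetrix bovine arrays, which gave each probe set an intensity on a linear scale, called signal here. There were 3 arrays of oocytes, 2 of 1-cell embryos (zygotes before division), 1 each of 2-cell, 4-cell, 8-cell and 16-cell embryos, 3 of morulae and 3 of blastocysts, 15 arrays over 8 stages. Oocytes came from aspirated ovarian follicles with dense cumulus and were matured, fertilised and cultured in vitro, and cumulus cells were removed by vortexing after fertilisation. The labels call the replicates biological, but do not give the breed, how many oocytes or embryos made up an array, or whether the sampled oocytes were matured and freed of cumulus. No group carried a drug or a genetic change.

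The labelled stages were checked against marker genes. The summed signal of 10 measured oocyte markers ran from 40950 to 68699 in oocytes, 1730 to 4286 in morulae and 1395 to 1902 in blastocysts, and all 10 fell in both comparisons with oocytes. Of 10 measured markers of the embryonic epithelium and trophectoderm, 8 rose in morulae and 9 in blastocysts. Summed over 16 measured cumulus and granulosa markers, the signal was 8550 to 12647 in oocytes, 14408 to 17265 in morulae and 15821 to 18569 in blastocysts. Of these 16, 1 rose and 4 fell in morulae, and 4 rose and 3 fell in blastocysts. The morula sums were mostly HAS2, at 8622 to 9257, and SERPINE2, at 5078 to 6292. CYP11A1, CYP19A1, FSHR, AMH and FOXL2 of the same list were low throughout, at 59.55 or below on every array. Others were high in oocytes and lower in morulae: STAR at 2537 to 2958 against 78.0 to 907, and VCAN at 713 to 1396 against 11.6 to 13.7. TNFAIP6 (70.2 to 1072) and PTX3 (20.6 to 428) varied among the oocyte arrays. Whether cumulus RNA was part of the oocyte arrays was not tested. Array medians ran from 39.7 to 61.7. Signal from spiked-in poly(A) control transcripts was seen on 9 arrays and absent on 6 (oocyte 1, 1-cell embryo 1, morulae 1 and 2, blastocysts 1 and 2), so every single-array stage belongs to the class with this signal. The ratio of the middle to the 3′ probe set of GAPDH, a measure of how far amplified RNA reaches from the 3′ end, ran from 0.0374 to 0.237 in oocytes, 0.100 to 0.625 in morulae and 0.339 to 0.643 in blastocysts, and its part in the results below was not tested. In whole embryos, fewer cells of a type and less RNA per cell cannot be told apart, and a scaled array shows a transcript's share of the amplified RNA.

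Except on 1-cell array 2, BAK1 was close to the lowest signals of the array until the 8-cell stage, and it was high from the 16-cell stage on. In oocytes its signal was 4.21, 4.42 and 4.74, with between 8.50% and 10.7% of the probe sets lower on the same arrays. In 1-cell embryos it was 4.41 on array 1 and 141 on array 2, where 65.4% of the probe sets were lower. The 2-cell, 4-cell and 8-cell arrays gave 6.28, 3.19 and 2.06. Apart from that of 1-cell array 2, these values are at the low end of the scale, for which no limit of detection is used here. They show a low signal and not the absence of the transcript. The 16-cell array gave 587, above the signal of 77.4% of the probe sets on that array. Morulae gave 1911, 1895 and 1335, and blastocysts 642, 213 and 1287. All 3 morula arrays and all 3 blastocyst arrays lay above all 3 oocyte arrays, by factors far beyond the spread among oocytes.

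**Figure D1:**
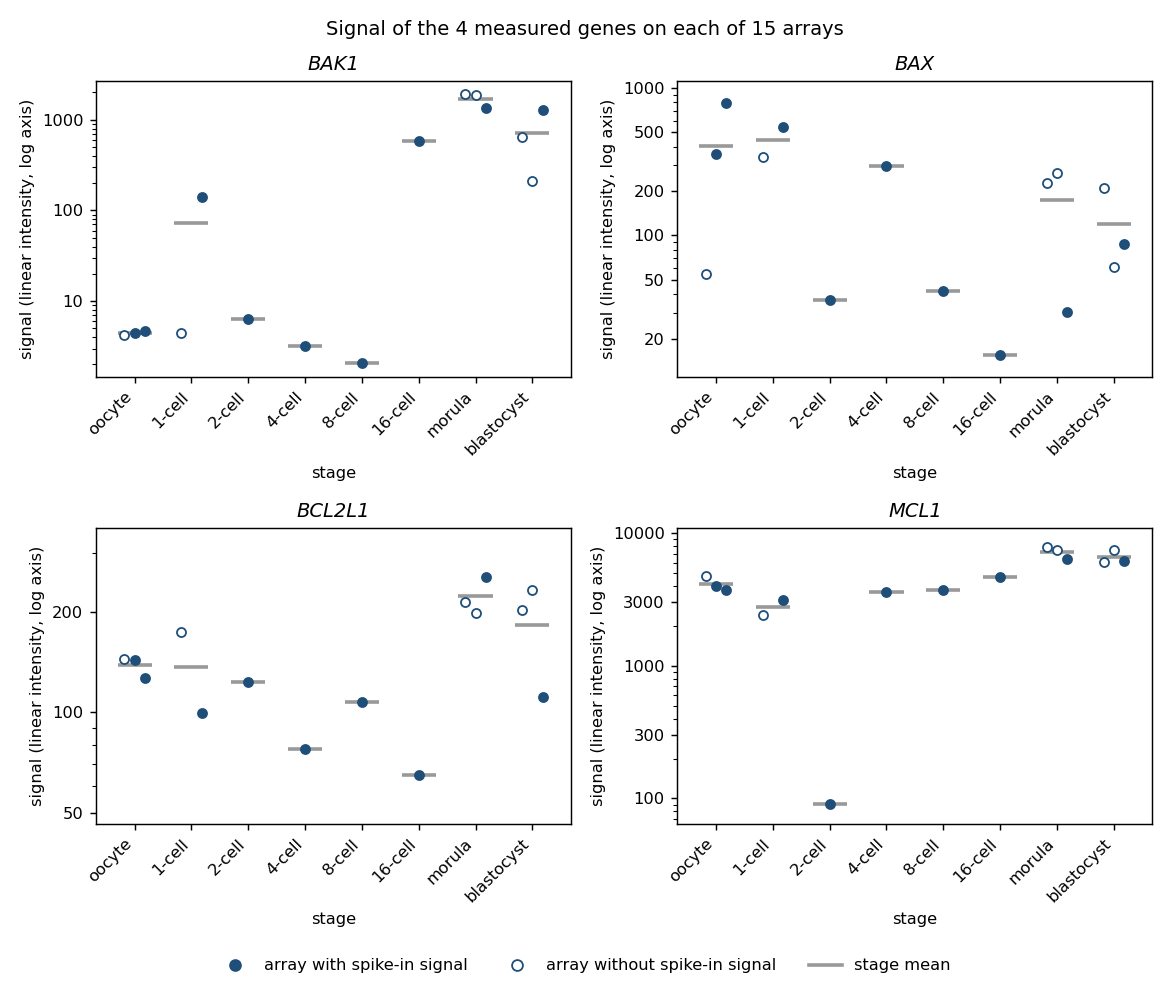
Signal of the probe sets of BAK1, BAX, BCL2L1 and MCL1 on each of 15 arrays, on log axes that differ between panels, in developmental order. Points are arrays, filled where spike-in signal was present, and grey bars are stage means. BAK1 separates the stages up to 8-cell from the later ones, with 1-cell array 2 at 141 well above the other early arrays. MCL1 has a single low point at the 2-cell stage.

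BAK1 averaged 1714 ± 328 in morulae and 4.46 ± 0.267 in oocytes (SD, n = 3 each). On the scale of log2(signal + 16), which understates changes of low signals, it was 6.38 higher in morulae (SE 0.77, 95% interval 4.66 to 8.10, limma adjusted p = 3.86e-04). Blastocysts averaged 714 ± 541, a log2 change of 4.83 against oocytes (SE 0.77, 95% interval 3.11 to 6.55, limma adjusted p = 0.00190). Of the 4 members, 1 rose and 0 fell in morulae and likewise in blastocysts, while 18.9% of all tested probe sets changed in morulae (11.8% higher) and 19.3% in blastocysts (11.9% higher). A count of 1 in 4 is near these shares, so it says nothing particular about the members as a set. The labels do not say what separates the biological replicates, so a p-value covers only the spread seen among these arrays.

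On the arrays without spike-in signal (1 of oocytes, 2 each of morulae and blastocysts) the log2 change of BAK1 was 6.57 in morulae and 4.26 in blastocysts. Over all arrays it was 6.38 and 4.83. The lone oocyte array of the fit without spike-in signal is assumed to vary like the other groups, so only the sizes are given here. On the arrays with it the changes were 6.04 and 5.98, but that fit has 1 residual degree of freedom and no probe set of the array passed (adjusted p = 0.218 and 0.230 for BAK1). The size depended on the constant added before the logarithm, at 8.28 with 1 and 4.68 with 64 in morulae.

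Between neighbouring stages, the 16-cell array gave a BAK1 value 33.4-fold above that of the 8-cell array on the scale of signal + 16, on which all steps between stages are given. A step of at least 4-fold upward between these arrays was seen for 13.7% of all probe sets, so BAK1 was one of many past that size. The share with a step as large as that of BAK1 was not counted. With 1 array per stage there is no replicate check. The 16-cell array also stood apart in its markers: 6 stromal genes summed to 5901 on it, against 131 on the 8-cell array, and 10 oocyte markers summed to 18473, against 49637. The stromal sum came mostly from COL1A2 (2432), VIM (1959) and LUM (1397), while COL1A1 (8.43), COL3A1 (25.9) and DCN (80.1) were low. The part of these differences in the BAK1 step was not tested. Morulae had stromal sums of 197 to 1733, with DCN at 1324 on morula 3, against 167 to 438 in oocytes. Their 7 measured blood and immune markers summed to 457 to 1721, against 172 to 272 in oocytes, with HBB at 1382, 1437 and 232. The part of these signals in the morula results was not tested. On signal + 16 the mean of BAK1 in morulae was 2.87-fold above the 16-cell array. The 3 morula arrays all exceeded that array, while the 3 blastocyst arrays lay on both sides of it.

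The blastocyst arrays of BAK1 all lay below the morula arrays, as did 7.7% of probe sets. The log2 change between these stages was -1.56 (SE 0.77, 95% interval -3.28 to 0.17, limma adjusted p = 0.707). The 3 blastocyst arrays differed widely, with array 3 at 1287 close to morula 3 at 1335 and array 2 at 213 far below. None of the 4 members passed in this comparison, nor did any at an unadjusted p under 0.05, and 0.167% of probe sets passed in all.

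In 1-cell embryos against oocytes, the mean of BAK1 was 4.34-fold higher on the scale of signal + 16, a step of at least 4-fold that 2.2% of probe sets made. It rested on array 2: with that array left out the log2 change was -0.00321, and over both arrays it was 1.47 (SE 0.86, limma adjusted p = 0.836). No member passed in this comparison, none reached an unadjusted p under 0.05, and 0.271% of probe sets passed.

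**Figure D2:**
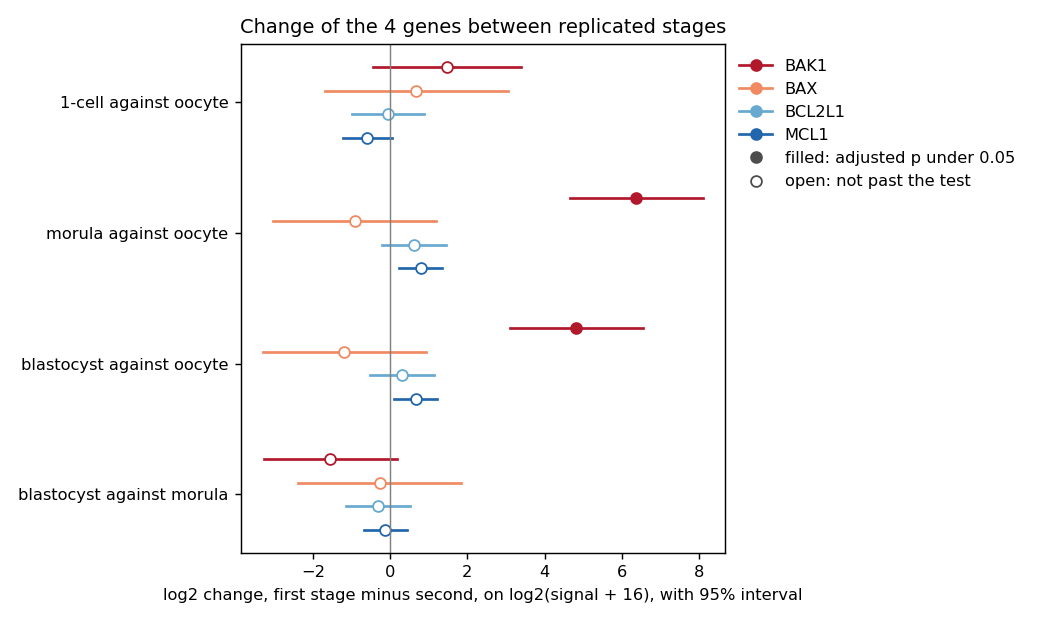
Change of the 4 genes in the 4 comparisons between replicated stages, as the difference of log2(signal + 16) with its 95% interval; the stage named first is compared with the stage named second. Filled points have an adjusted p under 0.05, and only BAK1 has them, in morulae at 6.38 and in blastocysts at 4.83 against oocytes.

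BAX, the other effector, showed no ordered course, and its replicates scattered at every replicated stage. Oocytes gave 54.6, 358 and 794, and 1-cell embryos 338 and 542. The single arrays gave 36.8 at the 2-cell, 296 at the 4-cell, 42.2 at the 8-cell and 15.5 at the 16-cell stage. Morulae gave 228, 265 and 30.4, and blastocysts 209, 61.0 and 87.9. Oocyte 1 lay below both 1-cell arrays and below most arrays of the late stages, while oocyte 3 lay above all of them, so the groups overlapped in every comparison between replicated stages.

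Morulae averaged 174 ± 126 and oocytes 402 ± 371 for BAX (SD, n = 3 each). The log2 change was -0.92 (SE 0.95, 95% interval -3.03 to 1.19, limma adjusted p = 0.564). Blastocysts averaged 119 ± 78.8, a log2 change of -1.19 against oocytes (SE 0.95, 95% interval -3.30 to 0.92, limma adjusted p = 0.445). Neither interval excludes a change of 4-fold downward or a smaller one upward, so the data do not show that BAX was constant. The sign of the morula change turned with the arrays used: it was 1.89 on arrays without spike-in signal and -3.57 on arrays with it, and 0.69 without the arrays numbered 3.

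The single-array stages of BAX alternated, with folds again taken on signal + 16. The 2-cell array lay 8.64-fold below the 1-cell mean, a drop of at least 4-fold that 7.07% of probe sets made. The 4-cell array was 5.91-fold above the 2-cell array, as were 5.9% of probe sets by at least 4-fold, and the 8-cell array was 5.36-fold below the 4-cell array, as were 8.05%. Morulae averaged 6.04-fold above the 16-cell array, a step of at least 4-fold for 6.9% of probe sets. The 2-cell and 8-cell arrays lay within the span of the morula and blastocyst arrays, from 30.4 to 265, the 4-cell array above it and the 16-cell array below it. With 1 array at each of these stages and replicates as far apart as 54.6 and 794 in oocytes, the steps have no measured error.

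MCL1 was high on 14 of 15 arrays. MCL1 encodes a guardian with a short-lived protein, and in mice its loss ends development around implantation. Its signal was 4752, 3999 and 3727 in oocytes and 2395 and 3133 in 1-cell embryos. The 2-cell array gave 90.7, and the 4-cell, 8-cell and 16-cell arrays gave 3574, 3753 and 4688. Morulae gave 7803, 7408 and 6376, and blastocysts 6093, 7447 and 6152. All morula and all blastocyst arrays lay above all arrays of the earlier stages, and the 2 late stages overlapped each other.

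MCL1 averaged 7196 ± 737 in morulae and 4159 ± 531 in oocytes (SD, n = 3 each), which is 1.73-fold on the log2 fit. The log2 change was 0.79 (SE 0.25, 95% interval 0.23 to 1.35), with an unadjusted p of 0.0104 in the limma fit and an adjusted p of 0.0534. With the replicate number as a block, which the labels do not describe as a pairing, the same change had SE 0.23 and a limma adjusted p of 0.0397. Over 20 alternatives the adjusted p ran from 0.0233 to 0.643 and was under 0.05 in 5. Blastocysts averaged 6564 ± 765, a log2 change of 0.66 against oocytes (SE 0.25, 95% interval 0.10 to 1.22, limma adjusted p = 0.0997). In 1-cell embryos, at 2764 ± 522 (SD, n = 2), both arrays lay below the oocyte arrays, as did 8.89% of probe sets, with a log2 change of -0.59 (SE 0.28, limma adjusted p = 0.693).

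On signal + 16, the 2-cell value of MCL1 was 26.1-fold below the 1-cell mean, and the 4-cell value was 33.7-fold above the 2-cell value. Of 2901 probe sets whose signal exceeded 1000 at both the 1-cell and the 4-cell stage, 137 (4.72%) were at least 4-fold lower on the 2-cell array than at both, so MCL1 was not alone in a dip of that size. The share with a dip as deep as that of MCL1 was not counted. The 2-cell value has no replicate, and no other probe set with MCL1 as its single symbol is there to set beside it.

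BCL2L1 encodes BCL-XL, a guardian that binds both effectors. Its signal was 144, 144 and 127 in oocytes and 174 and 99.7 in 1-cell embryos. The single arrays gave 123 at the 2-cell, 77.6 at the 4-cell, 107 at the 8-cell and 64.9 at the 16-cell stage. Morulae gave 214, 199 and 255, and blastocysts 203, 232 and 111. All 3 morula arrays lay above every array of the earlier stages, while blastocyst 3 fell within the range of those stages.

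Morulae averaged 223 ± 29.1 and oocytes 138 ± 9.84 for BCL2L1 (SD, n = 3 each). The log2 change was 0.63 (SE 0.37, 95% interval -0.21 to 1.46, limma adjusted p = 0.291). In blastocysts, at 182 ± 63.1, the log2 change against oocytes was 0.31 (SE 0.37, 95% interval -0.52 to 1.14, limma adjusted p = 0.635), and its sign turned with quantile normalization (-0.10). The separation of morula from oocyte arrays was shared by BAK1, BCL2L1 and MCL1, 3 of 4 members, where 20.1% of all probe sets had every morula array above every oocyte array. In blastocysts BAK1 and MCL1 were so separated, 2 of 4, beside 19.4% of probe sets. Separation of 3 against 3 arrays is a weaker criterion than the adjusted p, which of these BAK1 alone passed.

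The order of stages can be read from the means only where neighbouring ranges stayed apart. For BAK1 the order ran upward from the 8-cell, 4-cell, oocyte and 2-cell arrays, which differed by under 2 units from one neighbour to the next, to the 1-cell pair, whose range spans the 2-cell value, then to the 16-cell array, to blastocysts, whose range spans the 16-cell value, and to morulae on top. For MCL1, the 2-cell array stood alone at the bottom, followed by 1-cell embryos, the 4-cell and the 8-cell array, oocytes and the 16-cell array, with gaps between neighbours smaller than the spread of the oocyte arrays, and then blastocysts and morulae, which overlapped each other. For BCL2L1, from the 1-cell stage at 137 upward through oocytes, blastocysts and morulae, each neighbour overlapped the next. For BAX, oocytes overlapped both the 4-cell array and the 1-cell pair, and blastocysts overlapped morulae.

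The 4 genes did not share a single course, although the means of BAK1, BCL2L1 and MCL1 were highest in morulae and next highest in blastocysts. Over the 15 arrays, which share stages, amplification and scaling, Pearson's r on log2(signal + 16) ran from -0.18 between BAK1 and BAX to 0.49 between BAK1 and MCL1. Spearman's rho, which compares ranks, ran from -0.26 between BAX and MCL1 to 0.70 between BAK1 and MCL1, and was 0.63 between BCL2L1 and MCL1. Among 7522 candidate probe sets with 1 gene symbol, the courses most like BAK1 were those of MRPL28 (r = 0.967), ANTKMT (0.965) and PMPCA (0.965). The nearest to MCL1 were CCAR1 (0.964), EEF1B2 (0.950) and SRP14 (0.943). On log2(signal + 16), MCL1 was at 6.74 on the 2-cell array and at 11.2 to 12.9 on every other array. Each Pearson's r of MCL1 therefore leans heavily on that 1 array. BCL2L1 was nearest to CHST14 (0.888), KCTD3 (0.874) and PNMA2 (0.850), and BAX to RRP15 (0.824), PYM1 (0.804) and PGD (0.796). The likeness of BAX was thus the lowest of the 4, over the same arrays.

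Other members of the BCL2 family were described for comparison, with 1 probe set per gene, the one with the highest mean. Of 18 listed, 10 were measured. In morulae against oocytes 3 rose, 0 fell and 7 did not pass the test. The 3 were BAD, BOK and BNIP3L. Their median log2 change was -0.08 over the 10 genes, beside 0.14 over 9155 named genes, of which 17.8% rose and 8.67% fell in the same comparison.

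BAD, a BH3-only gene whose product binds BCL2 and BCL-XL, gave 41.1, 80.8 and 56.6 in oocytes and 235 and 504 in 1-cell embryos. The 2-cell, 4-cell, 8-cell and 16-cell arrays gave 995, 352, 224 and 1903. Morulae gave 4142, 4593 and 2684, and blastocysts 494, 189 and 1146. Every later array of BAD lay above every oocyte array, and the morula arrays lay above all others. BAD averaged 3806 ± 998 in morulae and 59.5 ± 20.0 in oocytes (SD, n = 3 each). The log2 change was 5.66 (SE 0.62, limma adjusted p = 2.25e-04). In blastocysts, at 610 ± 489, BAD was 2.75 higher than in oocytes on the log2 scale (SE 0.62, adjusted p = 0.0117), and its change against morulae was -2.91 (SE 0.62, adjusted p = 0.143).

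BOK encodes a BAX-like protein that can act without activation by BH3-only proteins. It gave 103, 88.5 and 64.1 in oocytes and stayed between 32.4 and 104 up to the 16-cell stage. Morulae gave 378, 333 and 478, and blastocysts 161, 230 and 310, with no overlap between either late stage and oocytes. BOK averaged 396 ± 74.2 in morulae and 85.3 ± 19.8 in oocytes (SD, n = 3 each). The log2 change was 2.03 (SE 0.36, limma adjusted p = 0.00317). Its other probe set did not pass (0.75). In blastocysts the log2 change of BOK was 1.27 (SE 0.36, adjusted p = 0.0321), a call that was lost in 11 of 20 alternatives.

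BNIP3L encodes a mitochondrial receptor for mitophagy with a BH3-like motif. It gave 587, 822 and 1431 in oocytes, 4275, 3748 and 3825 in morulae and 2501, 4558 and 681 in blastocysts. The morula arrays of BNIP3L were close together and above all oocyte arrays, and the blastocyst arrays spread across both. BNIP3L averaged 3949 ± 285 in morulae and 947 ± 435 in oocytes (SD, n = 3 each). The log2 change was 2.14 (SE 0.63, limma adjusted p = 0.0404). The call was lost in 8 of 20 alternatives, among them those without oocyte 1, oocyte 2 or any 1 morula array (adjusted p 0.0766 to 0.130). In blastocysts the change of BNIP3L did not pass (1.15, limma adjusted p = 0.251), but 3 of 20 alternatives gained the call, all of them without blastocyst 3. These were without blastocyst 3 alone (1.91, limma adjusted p = 0.0217), without the arrays numbered 3 (2.25, 0.00656) and on the arrays without spike-in signal (2.49). The last fit holds 1 oocyte array, so only its size is given. The arrays with spike-in signal, with 1 of blastocysts, turned the sign (-0.66).

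**Figure D3:**
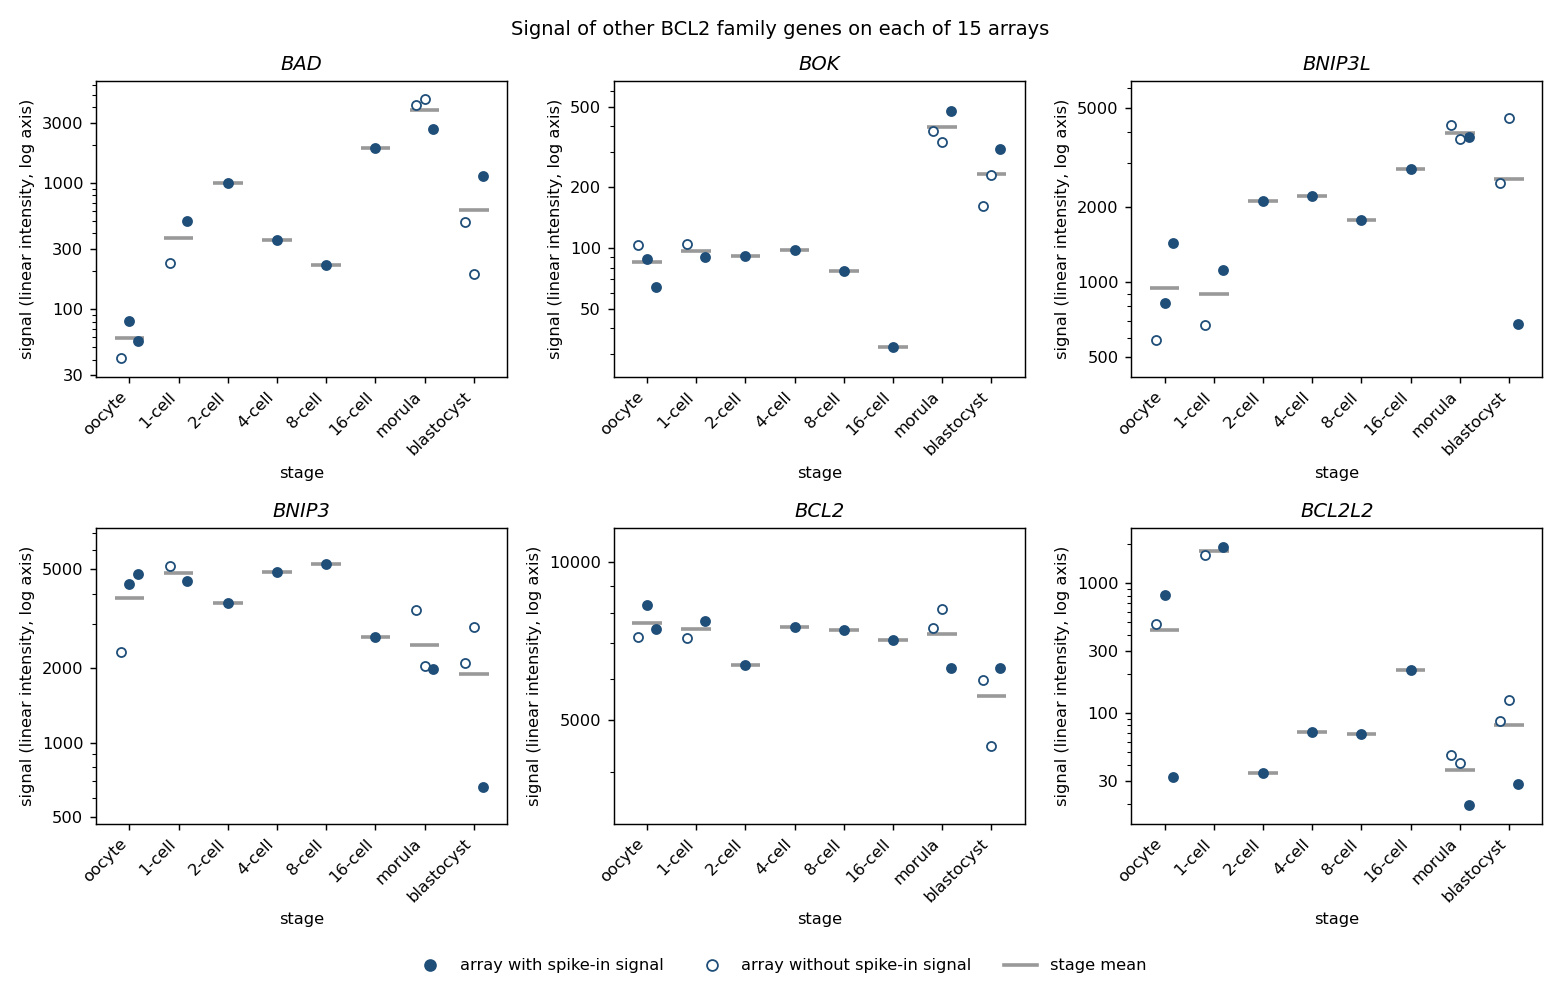
Signal of BAD, BOK, BNIP3L, BNIP3, BCL2 and BCL2L2, other genes of the BCL2 family, on each of 15 arrays, on log axes that differ between panels, in developmental order. Points are arrays, filled where spike-in signal was present, and grey bars are stage means. The morula arrays of BAD, between 2684 and 4593, lie above all other arrays, while BCL2 stays between 4462 and 8279.

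BCL2, the guardian that gave the family its name, had a high signal on every array, from 7183 to 8279 in oocytes, 6288 to 8135 in morulae and 4462 to 6287 in blastocysts. Its log2 change in morulae was -0.07 (SE 0.22, limma adjusted p = 0.875), and none of its 5 probe sets passed. BCL2L2, the gene of the guardian BCL-W, gave 480, 803 and 32 in oocytes, 1632 and 1895 in 1-cell embryos and 47.5, 40.9 and 19.7 in morulae. Oocyte 3 at 32 lay within the range of the morula arrays, and the log2 change of BCL2L2 was -2.41 (SE 0.92, limma adjusted p = 0.101). It passed in 5 of 20 alternatives. The replicate number as a block gave -2.41 (limma adjusted p = 0.0238) and median centring -2.60 (0.0492). The others all left out oocyte 3: without the arrays numbered 3 (-3.41, 7.83e-04), without oocyte 3 alone (-3.66, 0.00173) and on the arrays without spike-in signal (-3.04). The last fit holds 1 oocyte array, so only its size is given. BNIP3, the relative of BNIP3L, had a log2 change of -0.61 in morulae (adjusted p = 0.496). BCL2L12 (0.02, with the sign turned by quantile normalization and median centring), BCL2A1 (-0.09), BCL2L15 (-0.30) and BCL2L14 (-0.53) did not pass either.

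The genes around the family were read from 5 further lists. With the other family members these made 109 genes, of which 74 were measured. In morulae against oocytes 15 of the 74 rose, 7 fell and 52 did not pass, shares close to those of all named genes, with a median log2 change of 0.19. In blastocysts against oocytes 16 rose, 9 fell and 49 did not pass, beside 18.1% higher and 9% lower over all named genes. In blastocysts against morulae and in 1-cell embryos against oocytes, 0 of 74 passed in the limma fit, and 7 (9.46%) and 11 (14.9%) had an unadjusted p under 0.05, beside 9.31% and 9.02% of all named genes.

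Among 12 measured caspases, apoptosome genes and proteins released from mitochondria, 3 rose and 1 fell in morulae. DIABLO, whose product leaves the mitochondrion and blocks inhibitors of apoptosis proteins, gave 1078, 1217 and 683 in morulae and 38.1, 20.3 and 6.52 in oocytes. It rose by 4.79 on the log2 scale (SE 0.48, limma adjusted p = 1.38e-04). Like BAK1 outside 1-cell array 2, DIABLO was low up to the 4-cell stage, at 1.98 to 38.1, with 361 on the 8-cell and 2845 on the 16-cell array. ENDOG, a mitochondrial nuclease, gave 607, 636 and 605 in morulae and 12.6, 11.8 and 8.32 in oocytes, a log2 change of 4.56 (SE 0.59, adjusted p = 5.75e-04). The gene that fell was CASP1, a caspase of inflammation, with 22.4, 31.5 and 26.1 in morulae and 3433, 3409 and 6644 in oocytes, a log2 change of -6.66 (SE 0.38, adjusted p = 1.30e-05). In blastocysts the 3 genes moved in the same directions, with log2 changes of 4.64 for DIABLO, 4.03 for ENDOG and -6.50 for CASP1 (adjusted p 1.68e-04, 0.00117 and 1.68e-05).

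Of 7 measured inhibitors of apoptosis, 0 rose and 2 fell in morulae, with a list median of -0.51, beside 17.8% higher, 8.67% lower and a median of 0.14 over all named genes. API5 fell by 4.11 on the log2 scale (SE 0.78, limma adjusted p = 0.00491). CFLAR, the gene of the FLIP protein that holds back caspase activation at death receptors, fell by 2.43 (SE 0.42, adjusted p = 0.00296), but its other 2 probe sets did not pass. Among 11 genes of the death receptor pathway 1 rose and 1 fell, with a median of -0.36. The adaptor FADD averaged 1287 ± 50.2 in morulae and 121 ± 26.9 in oocytes, a log2 change of 3.27 (adjusted p = 7.05e-04), on 1 of its 3 probe sets. The kinase RIPK1 fell by 2.65 on the log2 scale (adjusted p = 0.0218), a call lost in 6 of 20 alternatives, including 4 that left out 1 array (oocyte 1 or 2, morula 1 or 2; adjusted p 0.0707 to 0.0783). Of 8 genes of p53 and damage signalling, TP53INP1 fell by 2.15 on the log2 scale (adjusted p = 0.0115), on both its probe sets, and none rose.

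The list of partners at mitochondria and endoplasmic reticulum is the longest and held more calls than any other, with 8 of 26 higher and 2 lower in morulae and a median log2 change of 0.91, beside 17.8% higher, 8.67% lower and a median of 0.14 over all named genes. PPIF, the gene of cyclophilin D, fell by 4.17 on the log2 scale (SE 0.79, limma adjusted p = 0.00484), and BCAP29 fell by 3.59 (SE 0.71, adjusted p = 0.00608). BAG5, a co-chaperone gene, was 3.80 higher (SE 0.85, adjusted p = 0.0112), but its other probe set did not pass (-0.58). VDAC2 encodes a channel of the outer mitochondrial membrane that binds BAK1 in mouse and human cells, and it was chosen after its values were seen. It gave 54.4, 59.4 and 89.7 in oocytes, 965, 733 and 284 in morulae and 2270, 3870 and 655 in blastocysts, with no overlap between either late stage and oocytes. VDAC2 was 2.87 higher in morulae (SE 0.70, adjusted p = 0.0173) and 4.46 higher in blastocysts (SE 0.70, adjusted p = 0.00176). Its morula call was lost in 5 of 20 alternatives, including 4 that left out 1 array (oocyte 1 or 2, morula 1 or 2; adjusted p 0.0567 to 0.0672).

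**Figure D4:**
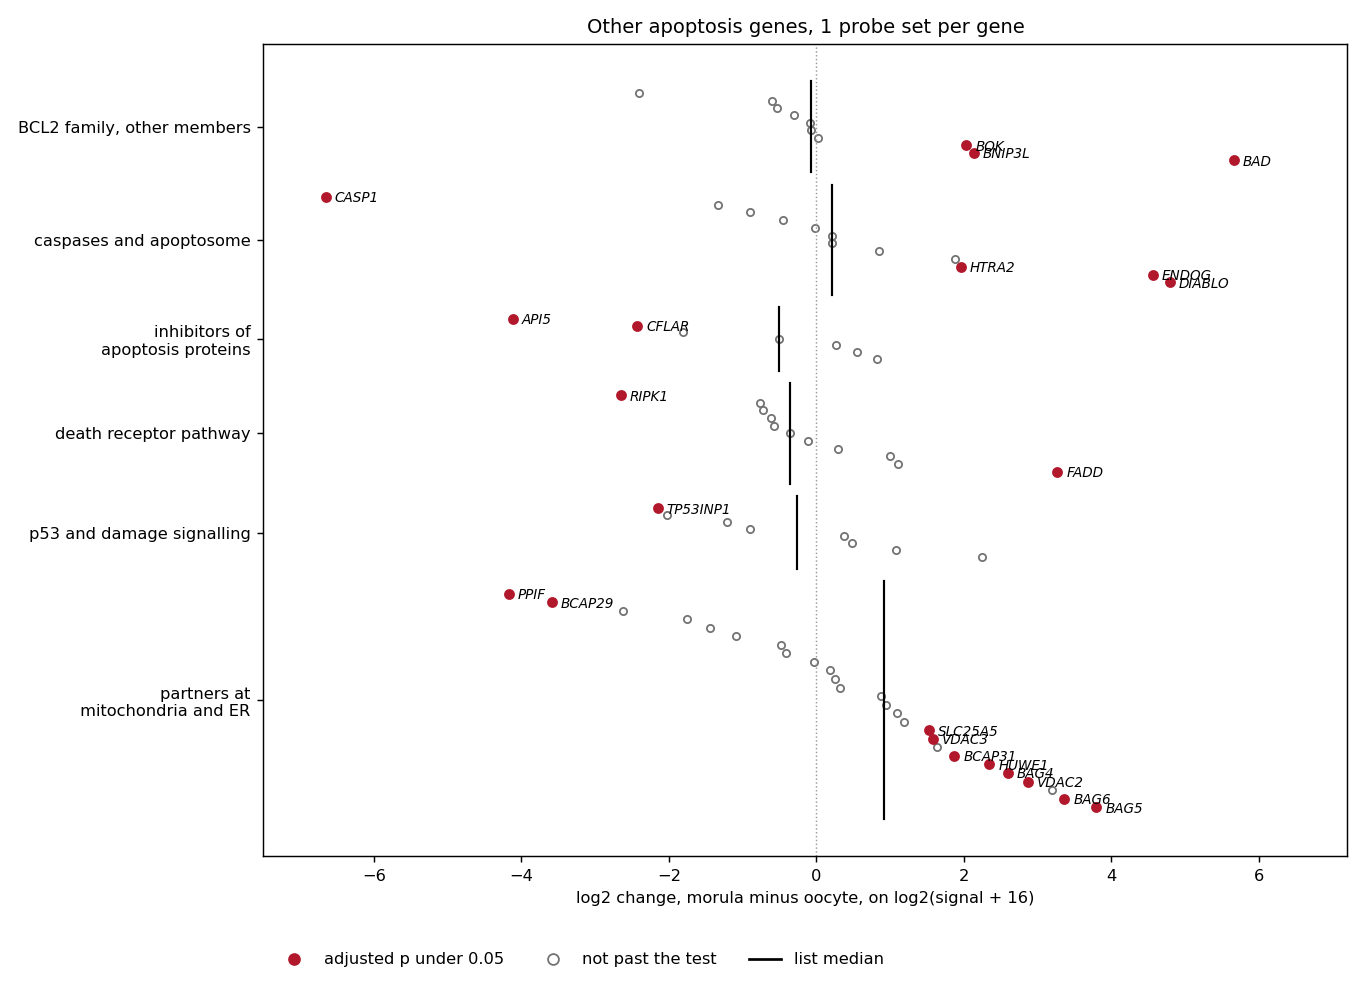
Log2 change from oocyte to morula (morula minus oocyte, on log2(signal + 16)) of 74 other apoptosis genes in 6 lists, 1 point per gene in order of its change. Filled points with a name have an adjusted p under 0.05, open points do not, and the black line is the list's median. In all, 15 genes lie to the right with a call and 7 to the left, with BAD and CASP1 at the ends.

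The alternatives bear unequally on the 4 genes. BAK1 kept its direction in all 20 alternatives of both comparisons with oocytes and its call in 19 of each, the exception being the arrays with spike-in signal alone. BAX turned its sign in 2 of 20 alternatives in morulae and 1 of 20 in blastocysts. MCL1 kept its direction in all 20 of both, between 0.61 and 0.89 in morulae and between 0.48 and 0.76 in blastocysts.

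**Figure D5:**
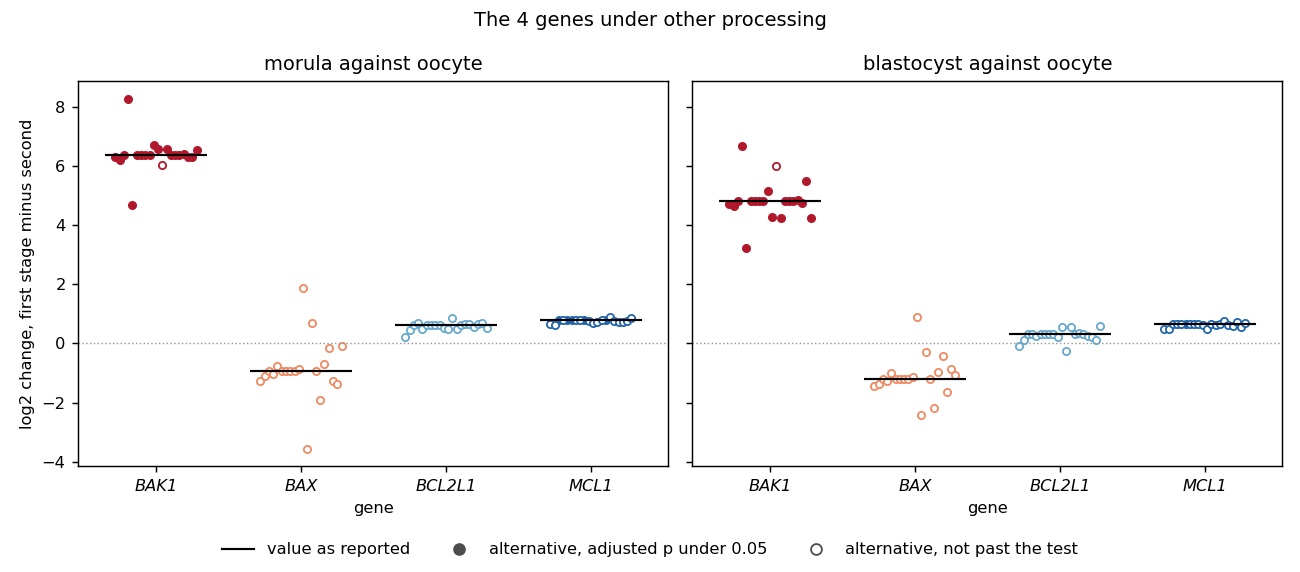
Log2 change of BAK1, BAX, BCL2L1 and MCL1 in morulae and in blastocysts, each against oocytes, under 20 other processing choices (points) and as reported (black lines). Filled points have an adjusted p under 0.05. The points of BAK1 lie between 4.68 and 8.28 in morulae and those of BAX on both sides of 0.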

How the data were processed

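The authors deposited 1 table of intensity values on a linear scale for 24128 probe sets on 15 arrays, made from amplified, biotin-labelled RNA, per the labels' protocols. How probes were summarised and arrays scaled is not given in the sources used here. The lowest value was 0.39 and the highest 20788, with 2.56% at exactly 1. Stages and replicate numbers came from the titles. Without 112 control probe sets, 24016 were tested. Symbols of the platform's annotation were updated by gene identifier to RefSeq ARS-UCD2.0, and 13292 probe sets had 1 symbol, 86 several and 10638 none.

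Tests used limma 3.58.1 (R 4.3.3) on log2(intensity + 16): a mean per stage over all arrays, a variance that follows the mean, 7 residual degrees of freedom, and two-sided p-values adjusted by Benjamini-Hochberg across the 24016 probe sets, with calls under 0.05. The scripts were tested on simulated data. The number of arrays limits the precision, and single arrays were not tested. The 5 genes and the lists were chosen with earlier results of these data known. Beside the members, the text names every measured family gene and up to 3 genes per list past the test with the largest change in morulae, and VDAC2 outside that rule. Likeness took the 3 named genes of highest Pearson r whose highest stage mean exceeds the median probe set.

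Deviations from the stage mean were correlated between arrays of the same number. The correlations were 0.142, 0.107 and 0.182 between morulae and oocytes and 0.278, 0.276 and 0.285 between blastocysts and oocytes. They were 0.195, 0.106 and 0.306 between blastocysts and morulae, and 0.183 and -0.115 between 1-cell embryos and oocytes. Deviations within a stage cancel out, so these correlations are not independent of each other. The pair of 1-cell arrays must mirror each other, and with oocyte 1 they gave 0.183 and -0.183. Arrays of different numbers also correlated, such as morula 1 with oocyte 2 (0.155) and blastocyst 2 with morula 1 (0.304). Among oocytes, morulae and blastocysts, arrays numbered 3 correlated negatively with those numbered 1 and 2 of another stage, at -0.340 to -0.127. The arrays numbered 3 all had spike-in signal, and what sets them apart was not tested. The labels do not say that arrays of the same number belong together. The block on the replicate number is therefore an alternative and not a known pairing. Alternatives were quantile normalization, median centring, leaving out the lowest 33.3% of probe sets, added constants of 1 and 64, other variance models, the compared stages alone, replicate and spike-in blocks, each spike-in class, no arrays numbered 3, gene means and leaving out each array. Spike-in signal means a mean above 1000 over 3 spike-in probe sets. Figures used matplotlib 3.10.9 in Python 3.11.15.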

Additional observations from a re-analysis of the deposited data

How the results depend on the processing

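As fitted, 1 of the 4 members passed in morulae and 1 in blastocysts against oocytes. In morulae 2 passed, BAK1 and MCL1, without the lowest 33.3% of probe sets, with 64 added before the logarithm, without the variance trend, with the replicate block and with gene means. In blastocysts 2 passed without the variance trend. On the arrays with spike-in signal alone 0 passed in either comparison, where 0 of all probe sets did. Leaving out 1 array gave 1 in each, and no alternative gave a member call in blastocysts against morulae or 1-cell embryos against oocytes. The replicate block changed no other member call. For all probe sets, the morula count of 4550 became 7102 without the arrays numbered 3. The 40 calls of blastocysts against morulae ran from 0 to 95 and the 65 of 1-cell embryos from 0 to 419, in each case with the most when the arrays numbered 3 were left out; the cause was not tested. Signs of changes that did not pass turned as follows. On arrays without spike-in signal, morulae against oocytes gave 1.89 for BAX, 0.12 for BCL2, 0.18 for BNIP3 and -0.39 for BCL2L12, blastocysts against oocytes 0.90 for BAX, blastocysts against morulae 0.069 for BCL2L1 and 1-cell embryos against oocytes 0.25 for BCL2L1. On arrays with it, BCL2A1 gave 1.07 in morulae, BCL2L1 -0.24 and BNIP3L -0.66 in blastocysts against oocytes, and BAX 1.16 in blastocysts against morulae. With it as a block, BCL2A1 gave 0.020. Without the arrays numbered 3, morulae gave 0.69 for BAX, 0.018 for BCL2 and -0.20 for BCL2L12, and BCL2L1 gave 0.069 in blastocysts against morulae. Quantile normalization gave -0.10 for BCL2L1 in blastocysts and -0.40 for BCL2L12 in morulae, median centring -0.16 for BCL2L12, and gene means 0.22 for BCL2. Leaving out 1 array, the changes ran in morulae from -0.15 to 0.035 for BCL2, -0.56 to 0.35 for BCL2A1 and -0.53 to 0.36 for BCL2L12, in blastocysts against morulae from -1.10 to 0.19 for BAX, and in 1-cell embryos from -0.31 to 1.45 for BAX, -0.00321 to 2.94 for BAK1 and -0.41 to 0.30 for BCL2L1. Low signals such as those of BAK1 in oocytes limit how exactly a fold can be given.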
